A study of Homo sapiens with 3 samples.

Results

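The APOBEC3 cytidine deaminases were described across 3 single-cell RNA libraries of a human squamous carcinoma line. The members are the 7 genes APOBEC3A, APOBEC3B, APOBEC3C, APOBEC3D, APOBEC3F, APOBEC3G and APOBEC3H, taken as every row of the count matrices with 1 of these symbols, which gave 7 of 58735 features. The family was chosen after APOBEC3B had been seen at a lower level in resistant cells given cinobufotalin than in resistant cells without it. The APOBEC3B values of that pair are therefore a description of what chose the family and support nothing.

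APOBEC3 enzymes turn cytosine into uracil in single-stranded DNA. They restrict retroviruses and retroelements by damaging the DNA copied from their genomes, and the uracil they leave in cellular DNA is removed by the uracil glycosylase UNG. APOBEC3A and APOBEC3B can enter the nucleus and are the family members most often linked to the clustered cytosine mutations of head and neck tumours. Transcription of APOBEC3B is known to be held down by the DREAM and RB complexes, which repress cell cycle genes, and to be raised by NF-kB, while APOBEC3A and APOBEC3G are known targets of interferon.

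The cells were FaDu, an established line from a squamous carcinoma of the hypopharynx, and a TPF-resistant line built from FaDu with TPF, which is paclitaxel, cisplatin and 5-fluorouracil. Cinobufotalin, a bufadienolide of the kind found in toad venom, was the other agent. There was 1 library for each of 3 groups: the resistant line with TPF and cinobufotalin (resistant TPF cinobufotalin cells), the resistant line with TPF (resistant TPF cells) and FaDu with cinobufotalin (FaDu cinobufotalin cells). FaDu without drug was not analysed here, and the FaDu cells differ from both resistant groups in the line and in TPF together. Doses and times of treatment, and whether the resistant line is 1 clone, were not given in the sources used here. Each group rests on a single library, so no test between groups was possible, a library and its treatment cannot be told apart, and all intervals are 95% intervals for counting error only.

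The 7 genes lie in a row on the plus strand of chromosome 22 in GRCh38, from APOBEC3A at chr22:38952741-38992778 and APOBEC3B at chr22:38982347-38992804 through APOBEC3C at chr22:39014083-39020352, APOBEC3D at chr22:39021113-39033276, APOBEC3F at chr22:39040604-39053910 and APOBEC3G at chr22:39077005-39087743 to APOBEC3H at chr22:39097224-39104067. APOBEC3A, APOBEC3C and APOBEC3H code for 1 deaminase domain, and APOBEC3B, APOBEC3D, APOBEC3F and APOBEC3G code for a pair of them. The coding stretches of the active site are shown because they are what makes these proteins deaminases and because they show how nearly alike some members are. Capitals mark the codons of the zinc-binding histidine and the catalytic glutamate at the start and of the zinc-binding cysteines at the end, and all are on the plus strand, from exon 3 of APOBEC3A at chr22:38961420-38961530, exons 3 and 6 of APOBEC3B at chr22:38985833-38985937 and chr22:38991365-38991475, exon 3 of APOBEC3C at chr22:39017787-39017891 and exon 3 of APOBEC3H at chr22:39101246-39101350.
APOBEC3A: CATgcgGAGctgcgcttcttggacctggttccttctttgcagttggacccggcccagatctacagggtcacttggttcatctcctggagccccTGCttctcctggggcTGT
APOBEC3B, the second domain: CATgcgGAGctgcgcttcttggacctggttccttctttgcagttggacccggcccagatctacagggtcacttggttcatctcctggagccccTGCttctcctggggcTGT
APOBEC3B, the first domain: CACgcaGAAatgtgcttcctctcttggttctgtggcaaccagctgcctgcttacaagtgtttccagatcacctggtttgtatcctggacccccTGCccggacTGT
APOBEC3C: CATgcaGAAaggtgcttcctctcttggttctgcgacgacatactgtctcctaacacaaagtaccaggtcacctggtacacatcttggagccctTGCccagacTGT
APOBEC3H: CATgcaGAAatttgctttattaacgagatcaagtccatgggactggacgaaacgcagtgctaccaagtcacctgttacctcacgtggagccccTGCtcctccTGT

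The stretches of APOBEC3A and of the second domain of APOBEC3B were identical over 111 bases, and those of the first domains of APOBEC3B and APOBEC3F were identical over 105 bases. The APOBEC3B domains were 58.9% identical to each other. Because 3' libraries read the ends of transcripts, the ends matter more to the counts than the active sites. In GENCODE release 29 the annotated transcript APOBEC3A-205 runs on into APOBEC3B and holds 348 of the 354 bases of the last exon of APOBEC3B, chr22:38992431-38992778. Of the 100-base windows in the last 500 bases of the APOBEC3B transcript, 73.3% also occur in an APOBEC3A transcript, and 19.2% when APOBEC3A-205 is left out. No window of the ends of APOBEC3A, APOBEC3C, APOBEC3F, APOBEC3G or APOBEC3H occurs in another gene. All windows of APOBEC3D occur in the overlapping gene AL022318.4. How the counting by the authors treated such reads was not given in the sources used here, so the levels of APOBEC3B and APOBEC3D are uncertain to that extent. AL022318.4 itself had 3, 1 and 2 UMIs in resistant TPF cinobufotalin, resistant TPF and FaDu cinobufotalin cells.

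In the same order, 7525, 4862 and 6123 cells were kept, with 134802289, 135176387 and 165847771 UMIs (distinct captured RNA molecules) and a median of 17867, 27920.5 and 24440 UMIs per cell. The FaDu library stood apart in MALAT1, a nuclear RNA, with a median of 0.0892% of UMIs in FaDu cinobufotalin cells, against 0.731% and 0.795% in resistant TPF cinobufotalin and resistant TPF cells. Between 9 and 13 of the kept barcodes were shared by any pair of libraries. All 11 squamous epithelial markers reached 5 CPM, the usual scaling of UMIs to a common total per library. None of the 8 T and natural killer cell, 3 B cell and 6 myeloid cell markers reached it, and the common leukocyte gene PTPRC was at 0.00742 and 0.00603 CPM in resistant TPF cinobufotalin and FaDu cinobufotalin cells and had no UMI in resistant TPF cells. Leukocytes are the richest known source of several APOBEC3 RNAs. The myeloid markers summed to 7.91, 10.1 and 9.18 CPM in resistant TPF cinobufotalin, resistant TPF and FaDu cinobufotalin cells, led by the lysosomal CD68 at 3.54, 4.53 and 4.57 CPM, which is above APOBEC3A and APOBEC3G, and their part in the members' levels was not tested. The T and natural killer cell markers summed to 0.957, 1.15 and 0.784 CPM. Of the 8 fibroblast, 5 endothelial and 5 erythroid markers, only the erythroid marker HBA1 reached 5 CPM, at 9.53, 12.1 and 5.71 CPM in the same order. Every cell came from FaDu or its subline, so no cell type that lacks the family was present to show a level of free RNA, and the part of free RNA in shares of cells with a UMI was not tested.

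APOBEC3B and APOBEC3C had the most counts of the members in every library, APOBEC3F came next, and APOBEC3D was barely counted. These are levels of captured 3' ends, not scaled to length. APOBEC3C, a single-domain enzyme with weak activity, stood at 30.9 CPM (30.0 to 31.9) in resistant TPF cinobufotalin cells, 34.9 CPM (33.9 to 35.9) in resistant TPF cells and 30.3 CPM (29.5 to 31.1) in FaDu cinobufotalin cells. APOBEC3B, a nuclear double-domain enzyme, stood at 27.1 CPM (26.2 to 27.9), 42.4 CPM (41.3 to 43.5) and 31.0 CPM (30.2 to 31.9) in the same order, from 3647, 5732 and 5142 UMIs. APOBEC3B was thus the first member in resistant TPF cells and the second in resistant TPF cinobufotalin cells, while in FaDu cinobufotalin cells its interval overlapped that of APOBEC3C.

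**Figure D1:**
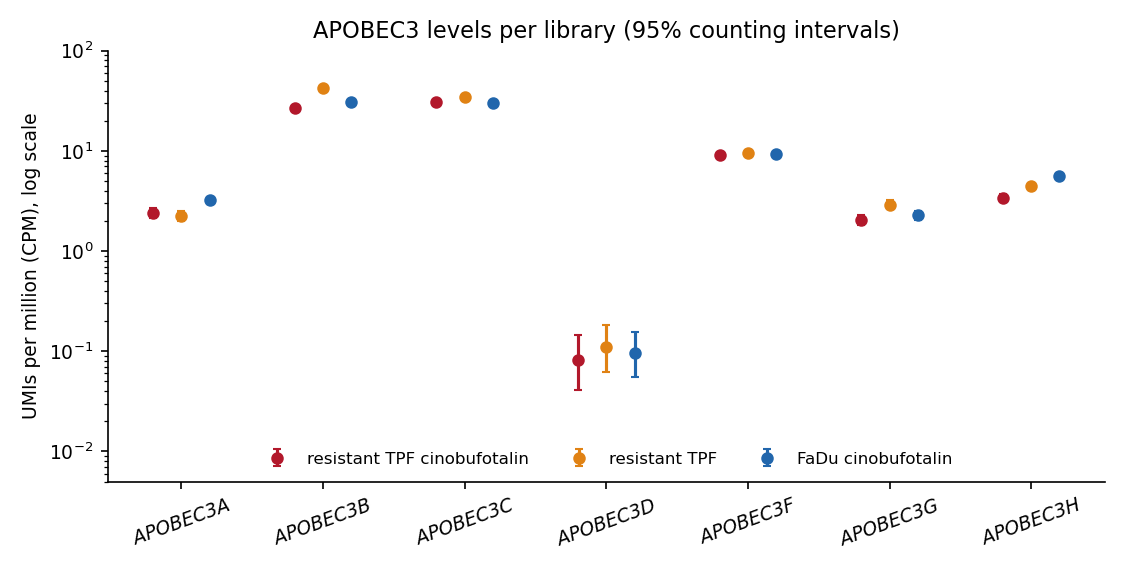
Level of each APOBEC3 gene in the 3 libraries, in CPM on a log axis, with 95% intervals for counting error; each point is the sum over the kept cells of 1 library. APOBEC3B lies at 27.1, 42.4 and 31.0 CPM in resistant TPF cinobufotalin, resistant TPF and FaDu cinobufotalin cells, while APOBEC3F stays between 9.09 and 9.59 CPM.

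APOBEC3F, a double-domain enzyme known for restricting retroviruses that lack the Vif protein, had 9.09 CPM (8.59 to 9.62) in resistant TPF cinobufotalin cells, 9.59 CPM (9.08 to 10.1) in resistant TPF cells and 9.32 CPM (8.86 to 9.79) in FaDu cinobufotalin cells. Its intervals overlapped in all 3 libraries. APOBEC3H, a single-domain enzyme whose human alleles differ in protein stability, had 3.4 CPM (3.1 to 3.73), 4.42 CPM (4.08 to 4.79) and 5.68 CPM (5.32 to 6.05) in the same order, with no overlap. APOBEC3A, a single-domain enzyme with strong activity on DNA, had 2.39 CPM (2.13 to 2.66), 2.26 CPM (2.01 to 2.52) and 3.22 CPM (2.95 to 3.50). APOBEC3G, a double-domain enzyme that acts on reverse-transcribed viral DNA in the cytoplasm, had 2.05 CPM (1.81 to 2.30), 2.91 CPM (2.63 to 3.21) and 2.28 CPM (2.06 to 2.52). APOBEC3A and APOBEC3G could not be put in order in resistant TPF cinobufotalin cells, where their intervals overlapped. APOBEC3D had 11, 15 and 16 UMIs, or 0.0816, 0.111 and 0.0965 CPM.

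The relatives APOBEC1, APOBEC2 and APOBEC4 and the pseudogene APOBEC3AP1 were at or under the floor of 3 UMIs in each library: APOBEC1, an RNA editing enzyme of the gut, had 1, 3 and 2, APOBEC2 had 1 in each, APOBEC4 had 1, 2 and 1, and APOBEC3AP1 had 0 in each. APOBEC3B-AS1, an antisense gene that overlaps the end of APOBEC3B on the minus strand at chr22:38991559-38998209, had 13, 14 and 2 UMIs in resistant TPF cinobufotalin, resistant TPF and FaDu cinobufotalin cells. Whether strand was used in counting was not given in the sources used here, so these few UMIs cannot be told apart from reads of APOBEC3B. Added to APOBEC3B, they would be too few to alter its levels. Any reads left out of both genes because of the overlap would not be seen in these counts.

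The first comparison asked what was different when resistant cells under TPF also received cinobufotalin. APOBEC3B was 1.57-fold lower in resistant TPF cinobufotalin cells than in resistant TPF cells, a log2 ratio of -0.65 (-0.71 to -0.59), and 65 of 14656 genes with a mean of at least 1 CPM had a lower ratio. APOBEC3G had a log2 ratio of -0.51 (-0.73 to -0.28), APOBEC3H of -0.38 (-0.56 to -0.20) and APOBEC3C of -0.17 (-0.24 to -0.11). The intervals of APOBEC3A, at 0.082 (-0.15 to 0.31), and of APOBEC3F, at -0.077 (-0.19 to 0.037), spanned 0. Of the 6 members at 1 CPM or more, APOBEC3B was the 1 lower by 1.5-fold or more and 0 were higher by as much, where 0.778% of all genes were lower and 0.43% higher by that much. The contrast chose the family, so nothing is read from that count. The median ratio was -0.28 over the 6 members and -0.057 over all genes, and with TMM scaling APOBEC3B stood at -0.60.

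A UMI of APOBEC3B was found in 34.1% (33.0 to 35.1) of resistant TPF cinobufotalin cells, against 57.7% (56.3 to 59.1) of resistant TPF cells and 47.7% (46.4 to 49.0) of FaDu cinobufotalin cells. Median depth differed between these cells as given above. With every cell thinned to 10000 UMIs, which left out 1205, 322 and 287 shallower cells, the shares were 22.6% (21.6 to 23.6), 32.5% (31.1 to 33.9) and 24.5% (23.4 to 25.6) in the same order, with overlapping intervals in resistant TPF cinobufotalin and FaDu cinobufotalin cells.

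The second comparison set the resistant line under TPF against FaDu under cinobufotalin. The median gene of this pair had a log2 ratio of 0.45, so a gene at equal CPM lay below most others, and ratios are given with that shift beside them. APOBEC3B had 42.4 CPM in resistant TPF cells and 31.0 CPM in FaDu cinobufotalin cells, a log2 ratio of 0.45 (0.40 to 0.51) equal to that of the median gene, and -0.12 with TMM scaling, where the median gene was also at -0.12. APOBEC3A, at -0.51 (-0.72 to -0.31), and APOBEC3H, at -0.36 (-0.51 to -0.21), were lower in resistant TPF cells, by 0.97 and 0.81 below the median gene on the log2 scale, and were at -1.08 and -0.93 with TMM scaling. Among cells with 0.3% to 1% MALAT1 APOBEC3A stood at -1.36 and APOBEC3H at -0.076, and without the barcodes under 0.1% MALAT1 at -0.46 and -0.21. APOBEC3C, at 0.20 (0.15 to 0.26), APOBEC3G, at 0.35 (0.14 to 0.56), and APOBEC3F, at 0.043 (-0.065 to 0.15), turned to the other side with TMM scaling, at -0.36, -0.22 and -0.53. Of 6 members 0 were higher and 0 lower by 1.5-fold or more, where 41% of all genes were higher and 2.07% lower. With TMM scaling 0 members were higher and 2 lower, where 12.5% of all genes were higher and 18.8% lower.

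The third comparison set the resistant line under both drugs against FaDu under cinobufotalin, and shares a library with each of the others. Its median gene had a log2 ratio of 0.40. APOBEC3H was 1.67-fold lower in resistant TPF cinobufotalin cells, at -0.74 (-0.90 to -0.58), which is 1.14 below the median gene, and was the 1 member of 6 at least 1.5-fold apart; 4.18% of all genes were lower and 38.6% higher by that much. APOBEC3A was also lower, at -0.43 (-0.63 to -0.23), and APOBEC3B at -0.20 (-0.26 to -0.14). APOBEC3C, at 0.030 (-0.030 to 0.089), APOBEC3F, at -0.035 (-0.14 to 0.074), and APOBEC3G, at -0.15 (-0.38 to 0.073), had intervals that spanned 0. With TMM scaling all 6 members were below 0, APOBEC3C among them at -0.49, and 4 were at least 1.5-fold lower, where 22% of all genes were lower and 14% higher. Without the barcodes under 0.1% MALAT1, most of which came from FaDu cinobufotalin cells, APOBEC3H stood at -0.58 and no member passed 1.5-fold, and among cells with 0.3% to 1% MALAT1 APOBEC3H stood at -0.43 and APOBEC3A at -0.99.

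Pathways that act on or with the family were counted over genes with a mean of at least 5 CPM, 1.5-fold apart. Between resistant TPF cinobufotalin and resistant TPF cells, 0 genes were higher in the lists of interferon response (40 genes), NF-kB (30), E2F and DREAM (24) and uracil repair (21), and IFIT1, an interferon-induced RNA-binding protein, was the 1 gene lower, at 115 against 174 CPM or -0.59. Of all genes 0.0775% were higher and 0.262% lower. IFIT1 no longer passed 1.5-fold with TMM scaling. The next interferon genes were XAF1, a partner of apoptosis regulators, at -0.51, IRF7 at -0.47 and CMPK2 at -0.44. E2F4, a DREAM subunit, was at -0.42, and E2F1, an activator of S phase genes, was at 28.1 against 36.1 CPM or -0.36. NFKB2 was at -0.34 and FEN1, a nuclease of base excision repair, at -0.36. UNG had 70.0 CPM in resistant TPF cinobufotalin cells and 65.7 CPM in resistant TPF cells.

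Against FaDu cinobufotalin cells the lists lay on different sides of the median gene at 5 CPM or more. In resistant TPF cells that gene was at 0.40, the median of the E2F and DREAM list at 0.77, of uracil repair at 0.51, of NF-kB at 0.46 and of interferon response at 0.14. In resistant TPF cells 18 of 24 E2F and DREAM genes, 12 of 30 NF-kB genes, 5 of 21 uracil repair genes and 7 of 40 interferon genes were higher, and 0, 0, 0 and 5 were lower, where 36.7% of all genes were higher and 1.92% lower. With TMM scaling the counts were 4, 0, 1 and 1 higher and 2, 6, 2 and 16 lower. E2F8, a repressor of the E2F family, had 30.9 CPM in resistant TPF cells and 6.55 CPM in FaDu cinobufotalin cells, NFKB1 was at 0.91 on the log2 scale and NEIL3, a DNA glycosylase, at 1.65. The RNA sensor DDX58 was at 1.48, and the antiviral membrane proteins IFITM1 and BST2 at -1.22 and -1.09. In resistant TPF cinobufotalin cells 14 of 24 E2F and DREAM genes, 9 of 30 NF-kB genes, 6 of 21 uracil repair genes and 6 of 40 interferon genes were higher and 0, 2, 0 and 8 lower, against 34.4% and 4.08% of all genes. With TMM scaling these were 7, 0, 1 and 2 higher and 2, 7, 2 and 19 lower. UNG was among the genes higher, at 70.0 CPM in resistant TPF cinobufotalin cells and 43.9 CPM in FaDu cinobufotalin cells.

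Cells were then placed in G1, S or G2/M from their cell cycle genes, each cell thinned to 5000 UMIs. G1, S and G2/M calls took 13.1%, 21.3% and 65.7% of resistant TPF cinobufotalin cells, 15.1%, 23.2% and 61.7% of resistant TPF cells, and 22.7%, 9.47% and 67.9% of FaDu cinobufotalin cells. Cycling was not read from these calls alone. MALAT1 moved with the phases, with a median of 1.41%, 0.842% and 0.639% in G1, S and G2/M of resistant TPF cinobufotalin cells, 1.77%, 0.82% and 0.706% in resistant TPF cells, and 0.137%, 0.184% and 0.0628% in FaDu cinobufotalin cells. Its part in the phase differences was not tested.

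APOBEC3B was lowest in G1 in every library. In resistant TPF cinobufotalin cells it had 13.7 CPM (10.5 to 17.5) in G1, 34.5 CPM (30.4 to 39.0) in S and 28.6 CPM (26.5 to 30.9) in G2/M. In resistant TPF cells it had 19.4 CPM (15.0 to 24.6), 49.8 CPM (44.0 to 56.1) and 44.0 CPM (40.6 to 47.5) in the same phases. In FaDu cinobufotalin cells it had 17.0 CPM (14 to 20.4), 27.6 CPM (21.8 to 34.4) and 36.6 CPM (34 to 39.3). Its highest value was in S in both resistant libraries and in G2/M in FaDu, but the S and G2/M intervals overlapped in each library. For G2/M over S the log2 ratio was -0.27 (-0.48 to -0.05) in resistant TPF cinobufotalin cells and -0.18 (-0.39 to 0.03) in resistant TPF cells. In FaDu cinobufotalin cells it was 0.41 (0.07 to 0.77), and these ratios moved with depth, as given at the end. The log2 ratio of G2/M over G1 was 1.07 (0.69 to 1.47) in resistant TPF cinobufotalin cells, 1.18 (0.82 to 1.57) in resistant TPF cells and 1.11 (0.82 to 1.41) in FaDu cinobufotalin cells. Among cells with 0.3% to 1% MALAT1 it was 1.24 (0.41 to 2.21), 0.43 (-0.26 to 1.21) and 1.21 (0.50 to 1.99). Genes at least 1.5-fold higher in G2/M than in G1 made up 8.66%, 10.6% and 3.3% of those at 5 CPM or more in the same order, and 13.3%, 13.2% and 8.28% were that much higher in S than in G1. The log2 ratio of S over G1 for APOBEC3B was 1.34 (0.93 to 1.76), 1.36 (0.97 to 1.77) and 0.70 (0.27 to 1.13).

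**Figure D2:**
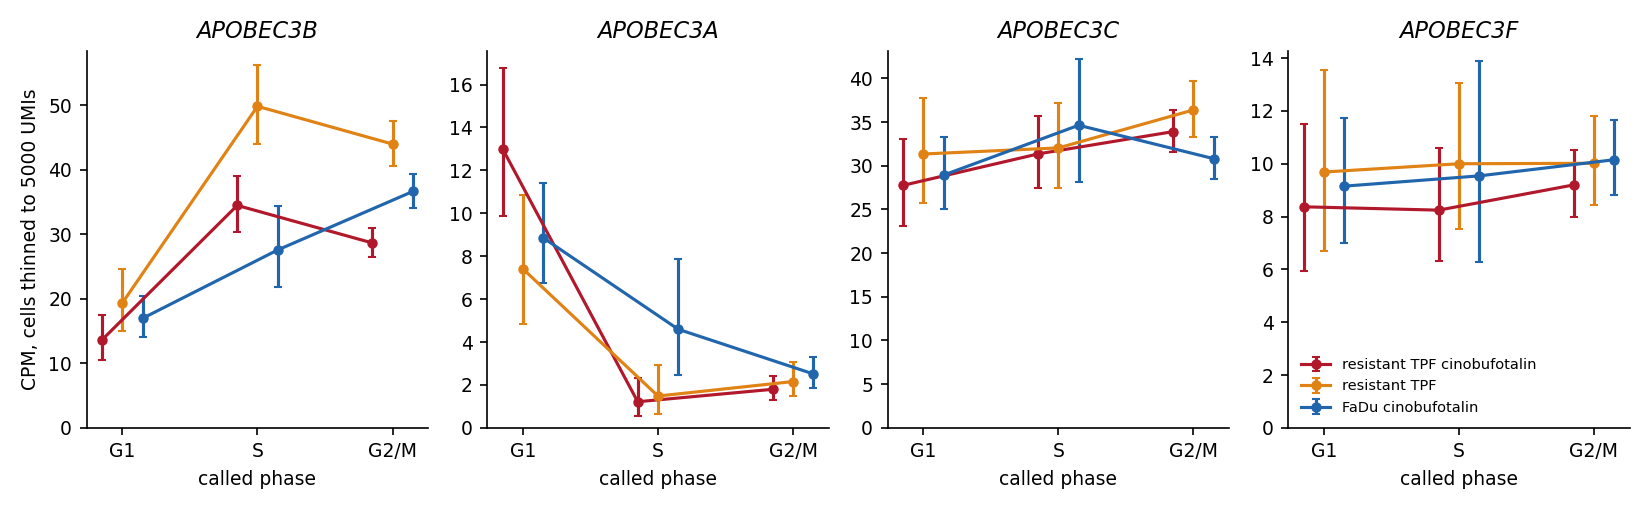
CPM of APOBEC3 genes in cells called G1, S and G2/M in each library, each cell thinned to 5000 UMIs, with 95% intervals for counting error. APOBEC3B is lowest in G1 in all 3 libraries, at 13.7, 19.4 and 17.0 CPM in resistant TPF cinobufotalin, resistant TPF and FaDu cinobufotalin cells, and APOBEC3A is highest in G1, at 13.0, 7.41 and 8.86 CPM.

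APOBEC3A went the other way. It had 13.0 CPM (9.89 to 16.8) in G1, 1.22 CPM in S and 1.80 CPM in G2/M of resistant TPF cinobufotalin cells, from 59, 9 and 41 UMIs. Resistant TPF cells had 7.41 CPM (4.84 to 10.9), 1.48 CPM and 2.16 CPM, from 26, 8 and 31 UMIs. FaDu cinobufotalin cells had 8.86 CPM (6.76 to 11.4), 4.59 CPM and 2.51 CPM, from 60, 13 and 51 UMIs. G1 was its highest phase in each library, and its G2/M over G1 ratio was -2.86 (-3.47 to -2.26), -1.78 (-2.58 to -0.97) and -1.82 (-2.38 to -1.25) on the log2 scale. Genes at least 1.5-fold lower in G2/M than in G1 made up 15.6%, 16.3% and 5.81% of those at 5 CPM or more in the same order. APOBEC3A is below 5 CPM in each library as a whole, so it is not among those genes. In G1 cells of resistant TPF cinobufotalin, APOBEC3A and APOBEC3B had overlapping intervals, while in S and G2/M APOBEC3B was far above it. Among cells with 0.3% to 1% MALAT1, G1 held 1 and 3 UMIs of APOBEC3A in resistant TPF cinobufotalin and FaDu cinobufotalin cells. There the G2/M over G1 ratio was on the other side, at 0.34 (-2.41 to 5.76) and 0.40 (-1.52 to 2.88). Most G1 UMIs of APOBEC3A in these libraries thus came from cells outside that set. The set was limited in depth and mitochondrial share as well as MALAT1. How many G1 cells it held is not given here, and the ratios rest on few UMIs, so no difference in level is read. All APOBEC3A intervals are also too narrow for its spread over cells, as given below.

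Most phase ratios of the other members spanned 0, with exceptions in each of APOBEC3C, APOBEC3G and APOBEC3H. APOBEC3C had 27.8, 31.4 and 33.9 CPM in G1, S and G2/M of resistant TPF cinobufotalin cells, 31.3, 32.0 and 36.4 CPM in resistant TPF cells, and 28.9, 34.6 and 30.8 CPM in FaDu cinobufotalin cells, and its G2/M over G1 ratio was above 0 in resistant TPF cinobufotalin cells, at 0.29 (0.015 to 0.57) on the log2 scale. APOBEC3F stayed between 8.24 and 10.2 CPM in all 9 phase groups, with every ratio spanning 0. APOBEC3H had 6.55, 3.33 and 3.34 CPM in resistant TPF cells, with a log2 ratio over G1 of -0.98 (-1.95 to -0.021) for S and -0.97 (-1.72 to -0.19) for G2/M, and in the other libraries its ratios spanned 0. APOBEC3G in FaDu cinobufotalin cells had 3.1, 0.707 and 2.56 CPM, where S rested on 2 UMIs and S over G1 was -2.13 (-5.27 to -0.10). APOBEC3D had 0 to 4 UMIs in a phase and was not compared.

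UNG, which excises the product of these enzymes, peaked in S in every library, at 25.6, 124 and 64.6 CPM in G1, S and G2/M of resistant TPF cinobufotalin cells, 21.7, 105 and 58.8 CPM in resistant TPF cells, and 35.4, 102 and 38.8 CPM in FaDu cinobufotalin cells. E2F1 had 11.5, 45.8 and 26.3 CPM, then 13.4, 54.1 and 39.3 CPM, then 16.8, 39.6 and 18.2 CPM in the same libraries. Both had a larger ratio of S over G1 than APOBEC3B in each library. The phases were called from cell cycle genes, so the S levels of such genes are partly set by the calls. These values are a description and test nothing. The interferon genes differed in their phases. IFIT1 was highest in G1, at 195, 143 and 98.2 CPM in resistant TPF cinobufotalin cells, 329, 200 and 151 CPM in resistant TPF cells, and 318, 231 and 227 CPM in FaDu cinobufotalin cells. ISG15 was highest in S of resistant TPF cinobufotalin cells, with S over G1 at 0.15 (0.12 to 0.18) on the log2 scale, and of resistant TPF cells, at 0.046 (0.015 to 0.077), and in G2/M of FaDu cinobufotalin cells, with G2/M over G1 at 0.17 (0.16 to 0.19).

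Cells were also ordered by a score of the interferon, NF-kB or G2/M genes and cut into deciles, 10 groups with the same score limits in the 3 libraries, so that a library gave a different number of cells to each. The lowest interferon decile held 741, 528 and 490 cells of resistant TPF cinobufotalin, resistant TPF and FaDu cinobufotalin, and the highest held 633, 524 and 602. APOBEC3B was higher in the highest interferon decile than in the lowest in all 3 libraries: 44.2 against 21.9 CPM in resistant TPF cinobufotalin cells, 54.6 against 34.8 CPM in resistant TPF cells, and 49.2 against 13.9 CPM in FaDu cinobufotalin cells. The log2 ratios were 1.02 (0.61 to 1.43), 0.65 (0.26 to 1.04) and 1.83 (1.28 to 2.41), where 10%, 11.6% and 13.1% of all genes at 5 CPM or more were higher by 1.5-fold or more and 7.69%, 8.84% and 13.8% were lower. The APOBEC3 genes are not in the scored lists. By NF-kB score the highest decile of APOBEC3B had 39.6, 58.2 and 46.9 CPM, against 24.6, 27.4 and 23.2 CPM in the lowest, where 13.3%, 16% and 13.8% of genes were higher and 3.83%, 5.54% and 3.89% lower. By G2/M score it had 30.0, 49.8 and 46.9 CPM, against 7.89, 10.5 and 12.7 CPM, where 13.4%, 14.3% and 9.1% of genes were higher.

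**Figure D3:**
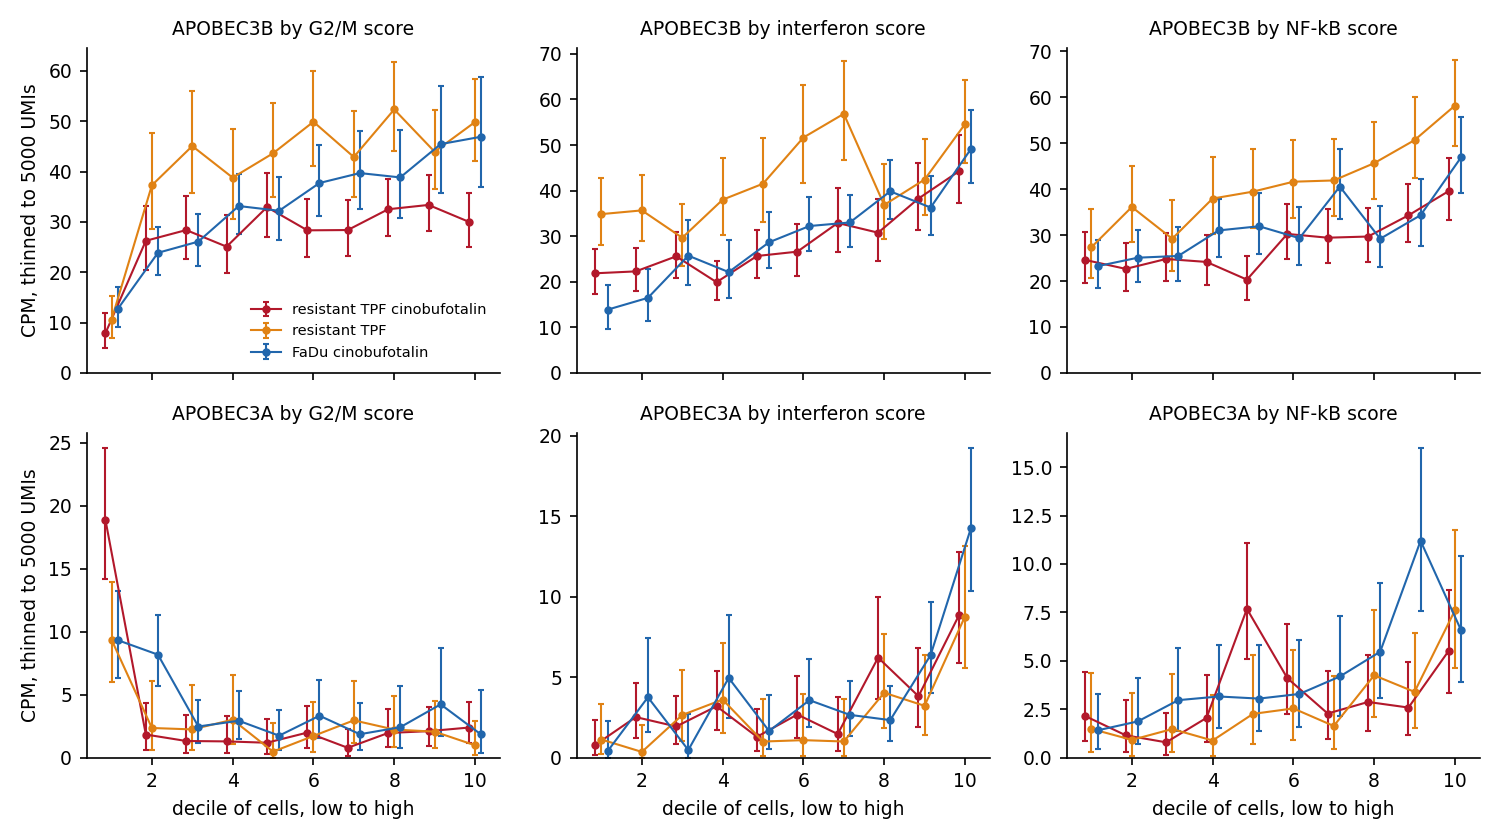
CPM of APOBEC3 genes by decile of cells from the lowest to the highest score, with the same limits in the 3 libraries and each cell thinned to 5000 UMIs, with 95% intervals for counting error. APOBEC3B is higher in the highest interferon decile, at 44.2, 54.6 and 49.2 CPM in resistant TPF cinobufotalin, resistant TPF and FaDu cinobufotalin cells, against 21.9, 34.8 and 13.9 CPM in the lowest.

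APOBEC3A had the steepest interferon relation, with 8.85, 8.78 and 14.3 CPM in the highest decile of resistant TPF cinobufotalin, resistant TPF and FaDu cinobufotalin cells, against 0.81, 1.14 and 0.408 CPM in the lowest. The lowest decile held 3 UMIs in resistant TPF cinobufotalin cells and 1 in FaDu cinobufotalin cells, so its log2 ratios of 3.45 (1.75 to 5.81), 2.95 (1.22 to 5.33) and 5.13 (2.57 to 10.5) are loose. Even these intervals are too narrow for the spread of APOBEC3A over cells, as given below. By G2/M score APOBEC3A had 2.40, 0.997 and 1.85 CPM in the highest decile, against 18.9, 9.38 and 9.34 CPM in the lowest, where 20.2%, 20.9% and 17.4% of genes at 5 CPM or more were lower. APOBEC3A is itself below 5 CPM in each library, so it is not among those genes. In resistant TPF cinobufotalin cells APOBEC3A was also higher with MALAT1, at 13.5 CPM in the highest MALAT1 decile against 1.02 CPM in the lowest. Resistant TPF cells had 7.55 CPM in the highest, against 0 UMIs in 121 cells (0 to 6.10 CPM) in the lowest. FaDu cinobufotalin cells had 5.94 against 3.70 CPM, on few UMIs, so no relation is read there. The part of MALAT1 in the other relations was not tested.

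APOBEC3H had 6.95, 8.40 and 5.98 CPM in the highest interferon decile, against 2.16, 2.27 and 1.63 CPM in the lowest, with each interval above 0. APOBEC3G had 3.79, 3.44 and 6.64 CPM against 0.81, 2.27 and 0.816 CPM, and its interval spanned 0 in resistant TPF cells. APOBEC3C had 36.7, 42.7 and 40.5 CPM against 28.6, 31.1 and 28.2 CPM, and its interval spanned 0 in resistant TPF cinobufotalin cells. APOBEC3F had 12.0, 9.92 and 15.0 CPM against 6.75, 10.2 and 4.49 CPM, with no difference detectable in resistant TPF cells at this depth.

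Phase and interferon score were then combined by splitting the cells of each phase at the median score of all cells. In G2/M, APOBEC3B had 35.4, 53.5 and 43.8 CPM above that median in resistant TPF cinobufotalin, resistant TPF and FaDu cinobufotalin cells, against 24.1, 36.1 and 25.5 CPM below it, with log2 ratios of 0.55 (0.33 to 0.78), 0.57 (0.34 to 0.80) and 0.78 (0.54 to 1.02). In S it had 43.6, 53.0 and 35.5 CPM against 26.0, 46.5 and 13.7 CPM, and the interval spanned 0 in resistant TPF cells. In G1 it had 15.7, 22.6 and 19.2 CPM against 11.9, 15.7 and 13.9 CPM, with all 3 intervals spanning 0. APOBEC3A in G2/M had 2.95, 3.85 and 3.16 CPM above the median, against 1.02, 0.762 and 1.51 CPM below it, with all 3 intervals above 0. In G1, its highest phase, APOBEC3A had log2 ratios of 0.75 (-0.036 to 1.57), 0.28 (-0.94 to 1.55) and 1.72 (0.75 to 2.81), and in S, on 13 UMIs or fewer, of 1.92 (-0.47 to 5.22), -0.059 (-2.48 to 2.37) and 0.92 (-1.04 to 3.42). Intervals above 0 were thus seen for APOBEC3B in G2/M of all 3 libraries and in S of resistant TPF cinobufotalin and FaDu cinobufotalin cells. For APOBEC3A they were seen in G2/M of all 3 libraries and in G1 of FaDu cinobufotalin cells. The UMIs of APOBEC3A gather in few cells, as given below, so its intervals are too narrow and no difference is read from them.

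The APOBEC3B ratio of resistant TPF cinobufotalin over resistant TPF cells, the pair that chose the family, is given within phases and deciles as a description from which nothing is read. The log2 ratio was -0.50 (-1.02 to 0.01) in G1, -0.53 (-0.79 to -0.28) in S and -0.62 (-0.78 to -0.46) in G2/M. It was below 0 in 10 of 10 deciles by S score, by G2/M score, by interferon score, by NF-kB score, by MALAT1 and by mitochondrial share, with the interval below 0 in 7, 7, 6, 8, 8 and 8 of them. ISG15, an interferon-induced protein outside the family, was below 0 in 9, 10, 8, 10, 10 and 9 deciles by the same measures. By interferon score the ratio was -0.26, -0.15 and -0.30 in the 3 highest deciles, and -0.21 in the third lowest, all with intervals spanning 0, and between -0.96 and -0.67 in the other deciles. The largest ratios were -1.59 (-2.43 to -0.75) in the lowest MALAT1 decile and -1.83 (-2.61 to -1.08) in the lowest mitochondrial decile.

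**Figure D4:**
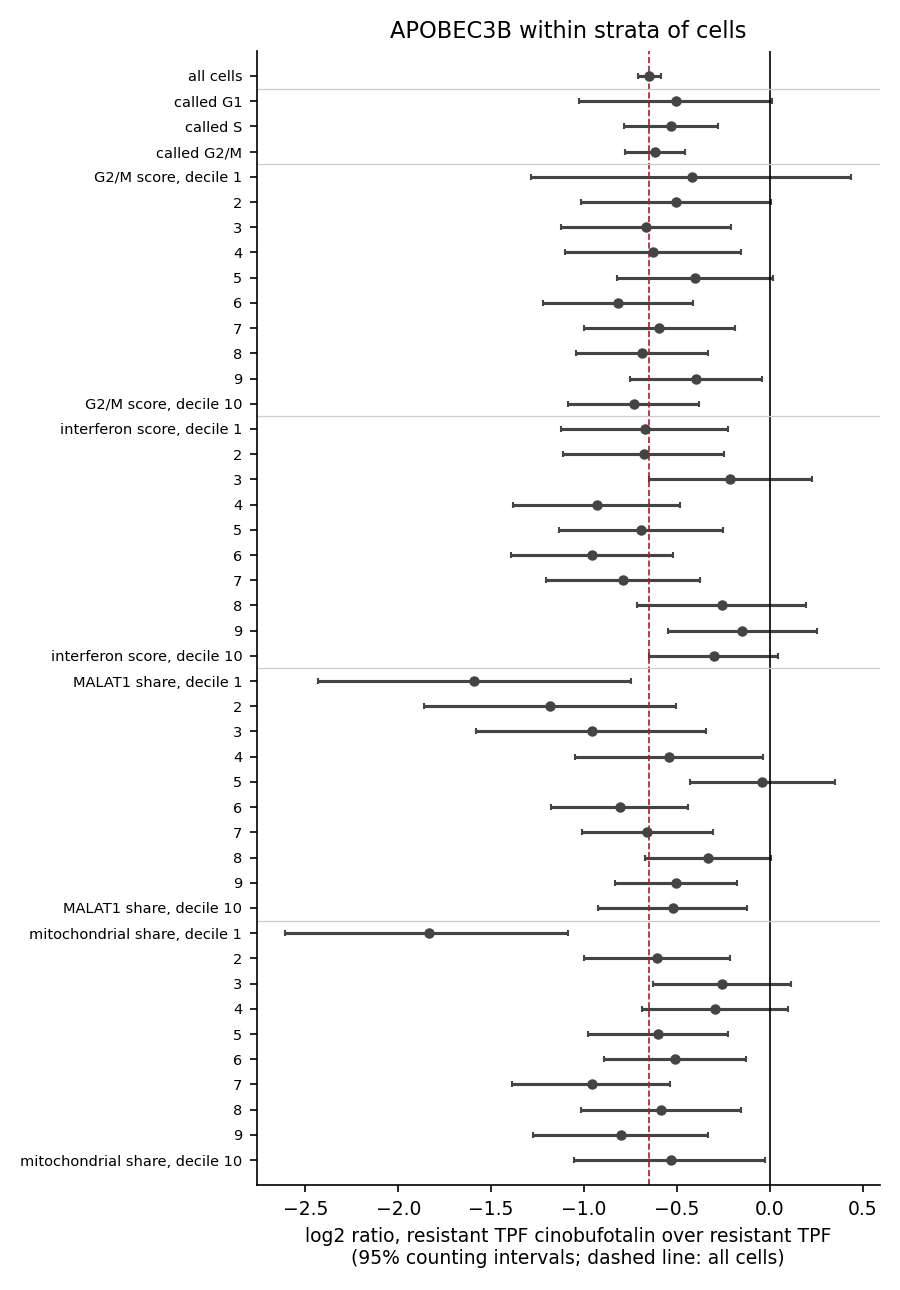
Log2 ratio of APOBEC3B in resistant TPF cinobufotalin over resistant TPF cells in all cells, in each phase and within deciles of cells by G2/M score, interferon score, MALAT1 share and mitochondrial share, with 95% intervals for counting error. The ratio is below 0 in 10 of 10 deciles of each measure and reaches -1.83 in the lowest mitochondrial decile.

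Between resistant TPF and FaDu cinobufotalin cells the APOBEC3B ratio was not the same in all states of the cells compared. Its log2 ratio was 0.19 (-0.26 to 0.64) in G1, 0.85 (0.49 to 1.24) in S and 0.26 (0.11 to 0.42) in G2/M. The G1 interval spanned 0 and overlapped both others. The median gene in cells of the same phases, without thinning, was at 0.47, 0.35 and 0.45. In the lowest interferon decile the APOBEC3B ratio was 1.33, on 92 UMIs in resistant TPF and 34 in FaDu cinobufotalin cells. In the highest it was 0.15, on 143 and 148 UMIs. For APOBEC3A in resistant TPF cinobufotalin over resistant TPF cells the G1 ratio was 0.81 (0.12 to 1.54), while over all cells it spanned 0. A UMI of APOBEC3A was found in 3.30% of the G1 cells of resistant TPF cinobufotalin and 2.42% of those of resistant TPF. Its UMIs gather in few cells, as given below, so this interval is too narrow and no difference is read from it.

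Among single cells, APOBEC3A was the most unevenly spread member by the variance of its counts over their mean. With each cell thinned to 10000 UMIs, the variance of APOBEC3A counts was 5.46, 2.68 and 4.29 times their mean in resistant TPF cinobufotalin, resistant TPF and FaDu cinobufotalin cells, where counts scattered evenly would give a ratio near 1. The highest cell held 24, 9 and 24 UMIs, and 1.61%, 1.74% and 2.36% of cells had any, against 2.65%, 2.69% and 3.55% for an even scatter of the same total. APOBEC3B had ratios of 1.16, 1.27 and 1.2 and APOBEC3C of 1.09, 1.09 and 1.06. At so few UMIs per cell a ratio near 1 does not show an even level, and APOBEC3B varied with phase and score as given above. The counting intervals of APOBEC3A are too narrow for its spread over cells. The correlation of a pair of members over the cells of 1 library lay between -0.016 and 0.05 over the 21 pairs and 3 libraries, too weak in such sparse counts to be a finding.

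**Figure D5:**
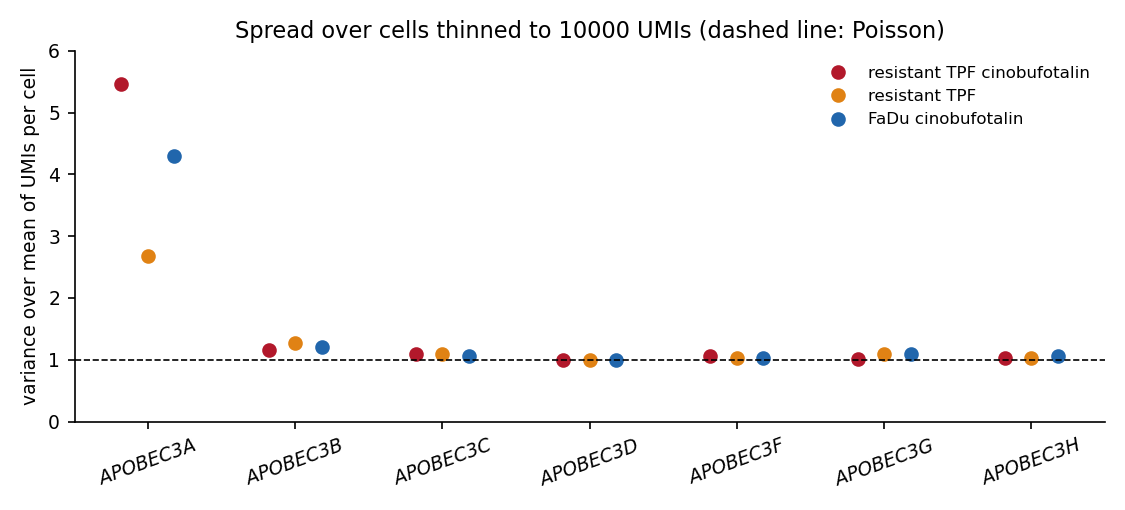
Spread of APOBEC3 counts over cells thinned to 10000 UMIs, as the variance divided by the mean in each library. APOBEC3A lies at 5.46, 2.68 and 4.29 in resistant TPF cinobufotalin, resistant TPF and FaDu cinobufotalin cells, and APOBEC3B at 1.16, 1.27 and 1.2.

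The cells rich in APOBEC3A were described further. They were set, after the values had been seen, as cells of at least 10000 UMIs with at least 3 UMIs of APOBEC3A, which gave 18, 20 and 52 cells in resistant TPF cinobufotalin, resistant TPF and FaDu cinobufotalin. These few cells held 41.1%, 42.9% and 47.1% of the APOBEC3A UMIs. G1 was called for 66.7%, 55.0% and 44.2% of them, against 9.78%, 12.7% and 17.4% of cells with no APOBEC3A UMI. Cells over 2 times the median UMIs, where doublets would gather, made up 0%, 5.0% and 11.5% of them, against 0.911%, 0.663% and 4.87% of cells with none.

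The genes named here were picked after their values were seen, from those higher in these cells in all 3 libraries. SPRR2A, a protein of the cornified envelope of squamous cells, was higher by 5.31, 5.15 and 3.50 on the log2 scale in resistant TPF cinobufotalin, resistant TPF and FaDu cinobufotalin, and SPRR1B by 3.08, 4.60 and 3.21. SLPI, a secreted protease inhibitor, had 1528, 1555 and 748 CPM in these cells, against 216, 201 and 134 CPM in cells with no APOBEC3A. KRT6A, a keratin of activated epithelium, was higher by 3.03, 4.14 and 2.07, the calcium-binding S100A9 by 3.15, 3.30 and 2.07, the iron-trapping LCN2 by 2.62, 3.1 and 1.37, and the interferon-induced RSAD2 by 1.64, 1.85 and 1.42. Of the interferon list, 26 of 39, 24 of 40 and 22 of 40 genes were higher by 1.5-fold or more and 0 were lower, where 31.5%, 31.8% and 22.1% of all genes were higher and 21.1%, 19.5% and 16.1% lower. Of the NF-kB list, 5 of 29, 13 of 32 and 12 of 32 genes were higher and 10, 5 and 3 lower. Of the E2F and DREAM list, 2 of 22, 1 of 23 and 0 of 25 were higher and 14, 9 and 7 lower. Of the S phase list, 0 genes were higher and 31 of 35, 28 of 39 and 16 of 42 were lower, and of the G2/M list 0, 1 and 1 were higher and 35 of 44, 31 of 52 and 24 of 54 lower. The cells were chosen by APOBEC3A counts, so these values describe them and are no test.

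By the likeness rule, the genes whose counts followed APOBEC3B most closely over cells were CXCL8, a chemokine under NF-kB control, at a mean Pearson r of 0.147, the ubiquitin enzyme UBE2T at 0.143, the recombination factor RAD51AP1 at 0.142, the interferon-induced OAS1 at 0.140 and PLSCR1 at 0.137, and the replication factor PCLAF at 0.137, of 6978 genes compared. For APOBEC3C they were led by LY6E at 0.0532 and IFI6 at 0.0515. These correlations over cells share library and depth and are weak.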

How the data were processed

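Single-cell 3' RNA libraries (10x chemistry) of 3 samples, 1 per group, were analysed. The matrices deposited by the authors hold unnormalized UMI counts, with Cell Ranger 7.0 and hg38 named in the submitters' processing notes. Annotation, intron use and strand use were not given in the sources used here. GENCODE release 29 (GRCh38) held 58735 of 58735 feature IDs and gave the positions and sequences shown.

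Of 8888, 6081 and 6888 barcodes (resistant TPF cinobufotalin, resistant TPF, FaDu cinobufotalin), those holding 1000 or more UMIs from 500 or more genes, with no more than 20% of UMIs mitochondrial, were kept. UMIs were summed per library, phase or decile and scaled to CPM. Levels and log2 ratios have 95% exact intervals (Clopper-Pearson or Poisson) for counting error only. Members were counted at 1.5-fold where the mean was at least 1 CPM, and lists and phase backgrounds where it was at least 5 CPM. Phases were called over all libraries from S and G2/M gene lists after thinning to 5000 UMIs, which left out 571, 205 and 144 cells. No doublet caller was run and no doublets were removed.

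Members, gene lists and comparisons were chosen with earlier results of these data known. Named genes were all 7 members, up to 4 genes of each pathway list per pair with the largest ratio, the 6 genes most like a member over cells, overlapping genes, and always UNG, E2F1, E2F8, CDKN1A, MKI67, IFIT1, ISG15 and NFKBIA. CDKN1A had 315, 319 and 282 CPM, MKI67 84.2, 102 and 34.8, ISG15 3113, 3446 and 5277 and NFKBIA 543, 632 and 616 CPM.

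The ratios, intervals and 1.5-fold calls between libraries were tested on simulated Poisson counts of whole libraries. Such counts hold no spread over cells, so intervals within phases and deciles, and those of APOBEC3A, were not tested. Alternatives were other cell filters, depths, scalings (TMM), each phase alone, equal weight per cell, and cells with 0.3% to 1% MALAT1. That last setting also required at least 10000 UMIs and a middle range of mitochondrial share. It kept 2560, 1706 and 881 cells of resistant TPF cinobufotalin, resistant TPF and FaDu cinobufotalin. Leaving out barcodes under 0.1% MALAT1, and the cells rich in APOBEC3A, were chosen after seeing the data. Tools were Python 3.11.15, numpy 2.4.6, scipy 1.17.1, pandas 2.3.3, scanpy 1.11.5, Biopython 1.88, R 4.3.3 and edgeR 4.0.16, used for TMM factors only.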

Additional observations from a re-analysis of the deposited data

Results flagged for a closer look

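APOBEC3B in G2/M against S cells differed in direction between the libraries. The log2 ratio of G2/M over S was -0.27 (-0.48 to -0.05) in resistant TPF cinobufotalin cells and -0.18 (-0.39 to 0.03) in resistant TPF cells, against 0.41 (0.07 to 0.77) in FaDu cinobufotalin cells. With 1 library per group the difference was not tested. Thinned to 10000 UMIs, the ratio was 0.0014 in resistant TPF cinobufotalin cells, -0.066 in resistant TPF cells and 0.29 in FaDu cinobufotalin cells. Among cells with 0.3% to 1% MALAT1 it was 0.15, -0.16 and 0.14 in the same order.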

How the results depend on the processing

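Of 108 alternative values of the 9 leading results, 72 stayed within the counting interval or, for counts, within 1.5 times, and 36 moved. APOBEC3B in resistant TPF cinobufotalin over resistant TPF cells (-0.65) stayed below 0 throughout, at -0.50 in G1 cells alone, -0.71 with each cell weighted equally and -0.58 thinned to 5000 UMIs. In resistant TPF over FaDu cinobufotalin cells (0.45) it was -0.021 in G1 alone, 0.65 in S alone, 0.38 in G2/M alone, 0.54 without barcodes under 0.1% MALAT1, -0.12 with TMM scaling, 0.38 with totals without mitochondrial and ribosomal protein genes, and 0.61 with equal weight. In resistant TPF cinobufotalin over FaDu cinobufotalin cells (-0.20) it was -0.52, -0.038, -0.28, -0.071, -0.72, -0.26 and -0.10 under the same settings. Members at least 1.5-fold apart numbered 2 in G1 alone and 2 with equal weight in the first pair (1 as reported). In the second (0) they numbered 2 in S, 2 in G2/M, 1 at 0.3% to 1% MALAT1, 2 with TMM, 1 without mitochondrial and ribosomal protein genes and 1 with equal weight. In the third (1) they numbered 3 in G1, 2 in G2/M, 4 with TMM, and 0 without barcodes under 0.1% MALAT1, with equal weight or at a mean of at least 5 CPM. APOBEC3B in G2/M over G1 was 1.5 with phase scores within each library in resistant TPF cinobufotalin cells (1.07), 0.43 at 0.3% to 1% MALAT1 in resistant TPF cells (1.18), and 0.78 unthinned, 1.49 with scores within each library and 1.51 without barcodes under 0.1% MALAT1 in FaDu cinobufotalin cells (1.11). At 0.3% to 1% MALAT1, 5 ratios on few UMIs changed sign: APOBEC3A in G2/M over G1 (0.34) and in S over G1 (0.22) and APOBEC3G in G2/M over G1 (-0.24) in resistant TPF cinobufotalin cells, and APOBEC3A in G2/M over G1 (0.40) and over S (1.25) in FaDu cinobufotalin cells. The cause was not tested in any of these. No paired analysis was possible because each group had 1 library. Few UMIs limit APOBEC3D in every comparison and APOBEC3A, APOBEC3G and APOBEC3H within phases and deciles. For APOBEC3D the part of depth and of its overlap with AL022318.4 was not tested.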
